A study of Homo sapiens with 29 samples.

Results

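The genes described here are 39 members of 3 linked programs: glycolysis, the response to low oxygen, and secreted angiogenic and stress factors. They were chosen by symbol, and all 39 were found among the 60675 genes of the deposited count table and passed the filter on low counts that left 20494 genes to test. By role they are 2 glucose transporters, 15 glycolytic enzymes, 8 regulators of glycolysis and of the fate of pyruvate, 4 hypoxia factors and oxygen sensors, 5 hypoxia-responsive genes, and 5 secreted factors.

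Polyadenylated RNA was sequenced from WM239A, a metastatic melanoma cell line, in 29 libraries. Vector cells carried an empty vector and all other groups overexpressed BRAF-V600E, the mutant kinase that keeps the MAPK pathway active. The promoter of the construct and whether the line is a single clone are not given in the sources used here. Both vector and untreated BRAF-V600E cells had no drug (3 libraries per group). Further BRAF-V600E cells had 20 hours in 500 nM LGX818 (encorafenib), a BRAF inhibitor, or 7 days of it, called week 1 (3 each). A continuous arm stayed in the drug to weeks 2, 3 and 4 (3, 3 and 2 libraries). An intermittent arm had DMSO, the solvent, for the 7 days to week 2 (off drug), LGX818 for the 7 days to week 3 (back on drug) and DMSO again to week 4 (off drug), with 3 libraries at each. The labels give no untreated cells late in the course, so time in culture and drug history cannot be told apart where later weeks are set against untreated cells. Whether replicate libraries are separate cultures is not stated, and p-values then measure only the spread between these libraries, which may be technical.

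Cells take up glucose through transporters of the SLC2A family and break it down to pyruvate in the glycolytic enzymes, with PFKFB enzymes setting the pace at phosphofructokinase. Lactate dehydrogenase turns pyruvate to lactate, which SLC16A transporters move across the membrane, while PDK kinases hold pyruvate back from the mitochondria. When oxygen is low, prolyl hydroxylases such as EGLN1 and EGLN3 no longer mark the HIF factors for destruction, and HIF then raises many glycolytic genes and secreted factors such as VEGFA. HIF activity is set largely at the protein level, which RNA counts do not show.

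Libraries held 22934039 to 35804978 counts. The drug state was checked with DUSP6 and CCND1. DUSP6, a phosphatase induced by ERK, was at 421 ± 4.38 CPM (counts scaled to library size; mean ± SD, n = 3) in untreated cells, 11.0 ± 0.936 at 20 hours and 63.9 ± 2.74 at week 1. It stood at 658 ± 17.97 off drug at week 2, 109 ± 7.75 back on drug and 613 ± 13.9 off drug at week 4. Under continuous drug its mean was 77.1, 103 and 144 CPM at weeks 2, 3 and 4. CCND1 fell from a mean of 1553 CPM in untreated cells to 71.7 at 20 hours, but was at 1118 at week 1. Under continuous drug it had 835, 423 and 402 CPM, against 1632.5 off drug at week 2 and 1074 back on drug. Its libraries at week 1 (1102 to 1144 CPM) overlapped those off drug at week 4 (1139 to 1261). From week 1 on CCND1 therefore did not separate all cells on drug from those off it. BRAF itself had 40.2 ± 2.83 CPM in vector and 895 ± 7.17 in untreated cells, and 3232 ± 59.9 and 3404 ± 83.9 in the off-drug groups, so these carried more BRAF RNA than untreated cells. Of 8 melanocyte lineage markers none was at 0 in every library, and their summed level ran from 319 CPM in 1 library at week 2 under continuous drug to 8247 CPM at 20 hours. Summed leukocyte markers reached at most 12.0 CPM in any library. In 2 groups 1 library stood apart from both others by a chi-square per gene over 20, namely replicate 3 of week 2 under continuous drug and replicate 1 of week 3 back on drug. Without them 12 calls of members were lost, each named with its comparison, and 29 were gained.

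RefSeq promoters (GRCh38.p14, 250 bases before to 50 after the gene's start, 300 bases in all) matched 33 of the 39 members; SLC2A3, SLC16A1, NDRG1, BNIP3L, VEGFA and STC1 had no entry. The core of the hypoxia response element, through which HIF binds, is ACGTG or GCGTG. On either strand, 25 of the 33 promoters (75.8%) held one of the 2, against 48.4% of the 27305 promoters in the table. ACGTG was in 13 (39.4%, against 21.6% of all) and GCGTG in 18 (54.5%, against 36.3%). CACGTG, which holds ACGTG and is also the E-box that MYC and MITF can bind, was in 4 (12.1%, against 7.43%). A match is a description of letters only. The 6 promoters below belong to members that took different courses across the drug schedule, and capitals mark ACGTG and GCGTG as read on either strand (CACGT and CACGC where they lie on the other one). LDHA, HK2 and PFKFB4 were lower after a week of drug than in untreated cells, and their means rose at each withdrawal. LDHA also rose under continuous drug, from a mean of 533 CPM at week 1 to 1025 at week 4. SLC2A1 and STC2 were higher after a week of drug and fell at each withdrawal, and CA9 was highest late in continuous drug.
LDHA: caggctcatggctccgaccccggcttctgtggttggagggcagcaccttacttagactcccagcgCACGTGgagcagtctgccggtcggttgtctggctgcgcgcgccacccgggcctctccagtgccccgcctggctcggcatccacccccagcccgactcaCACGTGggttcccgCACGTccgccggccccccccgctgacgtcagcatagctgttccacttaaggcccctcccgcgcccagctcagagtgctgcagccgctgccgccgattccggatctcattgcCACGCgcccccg
HK2: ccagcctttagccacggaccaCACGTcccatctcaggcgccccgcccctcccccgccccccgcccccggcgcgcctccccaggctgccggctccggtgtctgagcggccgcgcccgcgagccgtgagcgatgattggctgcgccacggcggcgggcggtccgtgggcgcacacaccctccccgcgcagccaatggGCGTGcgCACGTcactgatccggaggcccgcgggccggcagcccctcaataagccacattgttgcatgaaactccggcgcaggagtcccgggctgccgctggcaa
PFKFB4: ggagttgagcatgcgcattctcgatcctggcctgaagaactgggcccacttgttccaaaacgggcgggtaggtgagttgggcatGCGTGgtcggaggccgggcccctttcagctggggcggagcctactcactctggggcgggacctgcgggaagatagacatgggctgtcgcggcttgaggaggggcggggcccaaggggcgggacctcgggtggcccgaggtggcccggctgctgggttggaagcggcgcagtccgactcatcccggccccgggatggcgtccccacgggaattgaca
SLC2A1: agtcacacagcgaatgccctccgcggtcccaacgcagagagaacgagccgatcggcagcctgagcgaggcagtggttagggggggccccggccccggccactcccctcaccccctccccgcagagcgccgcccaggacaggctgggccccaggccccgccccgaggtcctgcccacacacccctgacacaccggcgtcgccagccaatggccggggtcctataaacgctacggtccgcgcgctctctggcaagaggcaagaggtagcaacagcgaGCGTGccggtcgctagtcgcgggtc
STC2: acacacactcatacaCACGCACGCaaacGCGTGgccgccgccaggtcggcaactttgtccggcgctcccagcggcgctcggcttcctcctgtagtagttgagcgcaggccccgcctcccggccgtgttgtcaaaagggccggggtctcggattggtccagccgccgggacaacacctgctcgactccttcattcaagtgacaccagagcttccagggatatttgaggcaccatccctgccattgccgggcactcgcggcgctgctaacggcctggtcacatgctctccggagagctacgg
CA9: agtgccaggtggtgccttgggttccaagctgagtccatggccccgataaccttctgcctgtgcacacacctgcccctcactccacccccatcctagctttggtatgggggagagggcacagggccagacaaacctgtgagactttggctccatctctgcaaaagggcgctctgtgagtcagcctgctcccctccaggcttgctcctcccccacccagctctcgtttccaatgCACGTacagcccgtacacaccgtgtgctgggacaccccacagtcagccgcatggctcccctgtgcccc
These lie, in the same order, at chr11:18394313-18394612 (plus strand), chr2:74833877-74834176 (plus strand), chr3:48556754-48557053 (minus strand), chr1:42958819-42959118 (minus strand), chr5:173328365-173328664 (minus strand) and chr9:35673678-35673977 (plus strand). LDHA and HK2 held both kinds of core, and LDHA also held 2 CACGTG sites. SLC2A1 and PFKFB4 held 1 GCGTG core each and CA9 held 1 ACGTG core. STC2 held 3 GCGTG cores and no ACGTG. PFKFB4 and SLC2A1, which moved in opposite directions at each withdrawal, carried the same core in this window. The genes LDHA (ENSG00000134333) and SLC2A1 (ENSG00000117394) span chr11:18394388-18408425 and chr1:42925375-42959176 in GENCODE 29.

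Levels in untreated BRAF-V600E cells differed widely between members. Per kilobase of merged exon (GENCODE 29 lengths), GAPDH was the highest at 2137 CPM per kb, followed by ENO1 at 503, ALDOA at 425 and PKM at 402. ALDOA exons overlap over 42.3% of their length with another gene in GENCODE 29, and the effect on its level was not tested. At the other end ANGPTL4 had 0.00973, CA9 0.0231 and VEGFC 0.0442 CPM per kb. Among the factors HIF1A had 85.8 and EPAS1, which encodes HIF-2 alpha, 1.39 CPM per kb. The 15 glycolytic enzymes together took 1.66 ± 0.112% of all counts in untreated cells, 1.16 ± 0.0611% at 20 hours, 1.29 ± 0.0562% at week 1 and 1.84 ± 0.0805% off drug at week 4 (mean ± SD, n = 3). Under continuous drug the share was 1.64 ± 0.125, 1.65 ± 0.141 and 1.64 ± 0.0113% (n = 2) at weeks 2, 3 and 4. These means were near that of untreated cells. It was 1.79 ± 0.165% off drug at week 2, 1.51 ± 0.184% back on drug and 1.56 ± 0.0864% in vector cells. The lowest group mean was thus at 20 hours and the highest off drug at week 4.

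**Figure D1:**
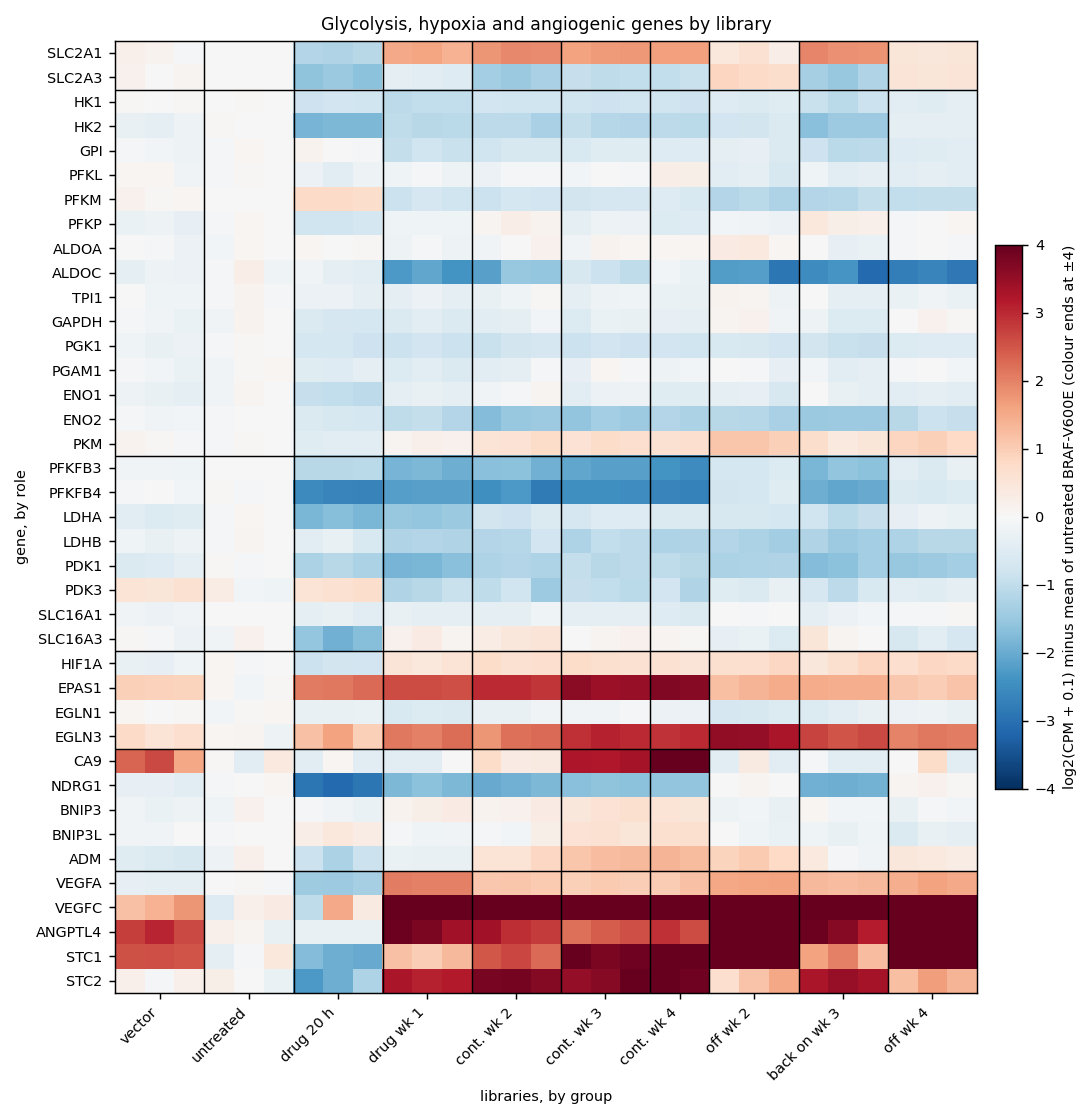
Colour shows log2(CPM + 0.1) of each member (down the side, by role) in each of the 29 libraries (along the bottom, by group) minus its mean in untreated BRAF-V600E cells, with the colour scale ending at 4 in either direction. PFKFB3, PFKFB4 and NDRG1 are blue in all libraries on drug, while EPAS1, EGLN3, VEGFA, VEGFC, STC1 and STC2 are red from week 1 on.

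Overexpression of BRAF-V600E was first compared with the empty vector. Of 39 members 10 rose (25.6%) and 7 fell (17.9%) at an adjusted p under 0.05, against 7.04% and 9.92% of all genes. Where a share is near that of all genes, it is no result about the members. With only these 2 groups fitted, 4 fell. Of the 15 glycolytic enzymes 4 rose and none fell, while 3 of the 5 secreted factors fell and 1, VEGFA, rose. STC1, a secreted glycoprotein induced by several stresses, stood at 5.09, 5.20 and 5.02 CPM in vector cells and at 0.6001, 0.746 and 1.10 in BRAF-V600E cells. The groups did not overlap. In bulk RNA fewer cells of a kind and less RNA per cell cannot be told apart, here and below. The fall was 6.24-fold (log2 -2.64 ± 0.18 SE, adjusted p = 2.06e-12). EPAS1 fell from 19.5, 19.4 and 19.0 to 10.6, 9.30 and 10.5 CPM, 1.91-fold lower (log2 -0.93 ± 0.08 SE, adjusted p = 3.36e-10). ANGPTL4, a secreted inhibitor of lipoprotein lipase, had 65 counts over the 3 vector libraries and 2 over the 3 BRAF-V600E libraries, 32.1 times fewer (8.54 to 271, the exact 95% interval for counting error). CA9, a carbonic anhydrase at the cell surface and a classical HIF target, had 46 counts against 3, 13.9 times fewer after scaling for depth (lower bound 4.48 by the same interval), and its fitted log2 change of -3.74 became -3.12 without replicate 2 and -4.61 without replicate 3 of BRAF-V600E cells. Exons of CA9 are overlapped over 38.5% of their length by ARHGEF39 on the opposite strand, so that reads could be shared if counting ignored strand. VEGFC, a ligand of lymphatic vessel receptors, was also lower (log2 -1.98 ± 0.61 SE, adjusted p = 0.0213), but not without vector replicate 3 or without BRAF-V600E replicate 1 or 2, where adjusted p was 0.0781, 0.0961 and 0.0532. Among the rises, LDHA went from 1111, 1043 and 1096 to 1457, 1604 and 1499.6 CPM (log2 0.49 ± 0.07 SE, adjusted p = 6.03e-06) and PDK1 from 40.6, 42.2 and 47.2 to 61.9, 57.1 and 61.1 (log2 0.47 ± 0.08 SE, adjusted p = 7.69e-05). No member rose 2-fold or more. Of 8 melanocyte markers, 5 were lower in BRAF-V600E cells too, with a sum over the 8 of 2368 to 2483 CPM against 2830 to 2955, and their part was not tested.

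At 20 hours of LGX818 the glycolytic program was lower. Of 39 members 5 rose (12.8%) and 27 fell (69.2%) at an adjusted p under 0.05, against 28.4% and 25.2% of all genes. The median log2 change of the members was -0.74, against 0.06 over all genes tested. Of the 15 enzymes 11 fell and 1 rose, and of the 8 regulators 7 fell and 1 rose. NDRG1, a gene induced by hypoxia and other stresses, fell from 462, 502 and 516 CPM in untreated cells to 65.7, 57.5 and 66.9, 7.79-fold (log2 -2.96 ± 0.07 SE, adjusted p = 2.71e-24). PFKFB4, which makes the activator of phosphofructokinase, fell from 370.2, 342 and 353 to 60.9, 56.3 and 55.4 CPM, 6.17-fold (log2 -2.62 ± 0.09 SE, adjusted p = 7.22e-21). No library at 20 hours came near an untreated one for either gene. HK2, the inducible hexokinase, went from 124, 119.7 and 120.0 to 33.5, 35.0 and 35.1 CPM (log2 -1.81 ± 0.08 SE, adjusted p = 1.05e-18). LDHA fell from 1457, 1604 and 1499.6 to 428, 468 and 423 (log2 -1.79 ± 0.07 SE, adjusted p = 5.35e-19), and SLC16A3, the lactate exporter MCT4, from 95.2, 116 and 102 to 35.3, 27.5 and 31.7 (log2 -1.73 ± 0.11 SE, adjusted p = 3.63e-14). HK2 starts glycolysis, while LDHA and SLC16A3 act after pyruvate, and the libraries of the 2 groups overlapped for none of the 3. Both glucose transporters fell, SLC2A3 2.99-fold (log2 -1.58 ± 0.08 SE, adjusted p = 3.59e-17) and SLC2A1 2.23-fold (log2 -1.16 ± 0.08 SE, adjusted p = 1.34e-13). VEGFA, the main ligand of endothelial VEGF receptors, was at 50.3, 53.1 and 49.9 CPM before and 19.0, 18.4 and 20.1 after (log2 -1.41 ± 0.07 SE, adjusted p = 7.38e-18). STC1 and STC2, already under 1.2 CPM, fell further by log2 changes of -2.52 ± 0.39 and -2.25 ± 0.39 (SE), the second reaching -2.87 without replicate 3 at 20 hours.

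The same 20 hours raised 5 members. EPAS1 rose from 10.6, 9.30 and 10.5 to 42.7, 43.5 and 48.5 CPM, 4.45-fold (log2 2.15 ± 0.08 SE, adjusted p = 4.42e-20), while HIF1A fell from 463, 423 and 439 to 241, 267 and 258 (log2 -0.79 ± 0.08 SE, adjusted p = 5.4e-10). The 2 factors thus moved in opposite directions. EGLN3 rose 2.57-fold (log2 1.36 ± 0.21 SE, adjusted p = 1.69e-06) from a mean of 0.751 ± 0.0935 CPM. PFKM, the muscle isozyme of phosphofructokinase, rose from 72.2, 72.3 and 70.2 to 122, 122 and 116 CPM (log2 0.74 ± 0.07 SE, adjusted p = 1.14e-10), and PDK3 and the mitophagy receptor BNIP3L rose by log2 changes of 0.62 and 0.33. The summed level of the 8 melanocyte lineage markers moved in these libraries too, from 2368 to 2483 CPM in untreated cells to 8094 to 8247 at 20 hours. The share of counts on mitochondrially encoded genes was 15.7% ± 0.714 and 19.5% ± 1.62 (SD, n = 3). The part of either in these results was not tested.

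After 7 days of drug the picture had split by role. Against untreated cells, of 39 members 10 rose (25.6%) and 23 fell (59.0%) at an adjusted p under 0.05, against 27.5% and 26.7% of all genes. The rising share was close to that of all genes. None of the 15 enzymes rose and 12 fell, and 7 of 8 regulators fell, whereas all 5 secreted factors rose. Among the falls with the largest fold were those of PFKFB4, from 370.2, 342 and 353 to 76.3, 77.9 and 78.8 CPM, 4.57-fold (log2 -2.19 ± 0.09 SE, adjusted p = 2.41e-19), and of ALDOC, the brain isozyme of aldolase, at 7.76, 9.73 and 7.15 and then 1.58, 1.85 and 1.48 CPM (log2 -2.32 ± 0.19 SE, adjusted p = 5.99e-12). PFKFB3 fell from 125, 123 and 127 to 34.1, 36.1 and 32.4 (log2 -1.87 ± 0.08 SE, adjusted p = 1.13e-18). PDK1, the kinase that shuts pyruvate dehydrogenase down, fell from 61.9, 57.1 and 61.1 to 16.5, 16.8 and 18.7 (log2 -1.79 ± 0.09 SE, adjusted p = 1.9e-17). All 3 regulators were below every untreated library. LDHA (log2 -1.51 ± 0.07 SE, adjusted p = 2.08e-17) and LDHB (log2 -1.19 ± 0.09 SE, adjusted p = 1.35e-12), the 2 chains of lactate dehydrogenase, both fell more than 2-fold. HK2, ENO2, PDK3 and NDRG1 fell by more than 2-fold as well, with log2 changes between -1.74 and -1.06. HK1 also fell at least 2-fold, from 246 ± 5.43 to 123 ± 2.46 CPM. HK2 held 33.9 ± 0.820% of the length-scaled counts of the HK1 and HK2 pair in untreated cells and 33.0 ± 1.10% at week 1.

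In the opposite direction, VEGFC went from 0.0400, 0.130 and 0.151 CPM in untreated cells to 27.1, 25.4 and 25.8 at week 1, a fitted rise of 229-fold (log2 7.84 ± 0.29 SE, adjusted p = 3.84e-20). VEGFA rose from 50.3, 53.1 and 49.9 to 212, 209 and 209 CPM, 4.10-fold (log2 2.04 ± 0.06 SE, adjusted p = 2.26e-22). Both VEGF ligands were above every untreated library. STC2, a secreted glycoprotein of the stress response, rose from 0.960, 0.810 and 0.644 to 8.48, 7.50 and 7.996 (log2 3.31 ± 0.20 SE, adjusted p = 4.68e-15). ANGPTL4 had 2 counts over the untreated libraries and 135 at week 1, 61.9 times more per library depth (16.8 to 516). EPAS1 rose from 10.6, 9.30 and 10.5 to 62.1, 61.8 and 60.4 CPM, 6.08-fold (log2 2.60 ± 0.08 SE, adjusted p = 2.49e-22), EGLN3 rose 4.76-fold (log2 2.25 ± 0.19 SE, adjusted p = 1e-11), and HIF1A, at 630.3, 598 and 646 CPM, was now higher than in untreated cells (log2 0.50 ± 0.08 SE, adjusted p = 2.35e-06). SLC2A1, the main glucose transporter of many tumours, rose from 71.5, 74.2 and 72.3 to 207, 218 and 193 (log2 1.503 ± 0.08 SE, adjusted p = 9.88e-17), while SLC2A3 remained lower (log2 -0.44 ± 0.07 SE, adjusted p = 7.09e-06). Markers moved over the same days: the summed fibroblast markers were 56.0 to 58.1 CPM in untreated cells and 310 to 316 at week 1 (COL1A1 from a mean of 0.778 to 224), and the melanocyte markers 2368 to 2483 and 831 to 897. The mitochondrial share of counts was 15.7% ± 0.714 and 10.3% ± 0.857. Their part in the results at week 1 was not tested.

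Set against 20 hours, week 1 showed which of the early falls had turned. Of 39 members 20 rose (51.3%) and 11 fell (28.2%) at an adjusted p under 0.05, against 28.6% and 29.1% of all genes. The falling share was that of all genes, within 1 percentage point. VEGFA was at 19.0, 18.4 and 20.1 CPM at 20 hours and at 212, 209 and 209 at week 1, 10.9-fold higher (log2 3.45 ± 0.07 SE, adjusted p = 3.25e-27). SLC2A1 was 6.33-fold higher (log2 2.66 ± 0.08 SE, adjusted p = 2.4e-22) and SLC16A3 3.79-fold higher (log2 1.92 ± 0.11 SE, adjusted p = 2.13e-15), back to 117, 129.5 and 112 CPM. HIF1A rose 2.45-fold (log2 1.29 ± 0.08 SE, adjusted p = 6.71e-15). These genes had all fallen at 20 hours. STC2 and VEGFC were also higher, by log2 changes of 5.55 and 6.95, which became 6.17 without replicate 3 and 8.25 without replicate 2 at 20 hours. ANGPTL4 had 0 counts at 20 hours and was at least 35.6-fold higher at week 1, taken against 3 counts over the group. PFKM, which had risen early, fell from 122, 122 and 116 to 39.1, 44.5 and 40.8 CPM (log2 -1.53 ± 0.07 SE, adjusted p = 5.36e-18), and PDK3 (log2 -1.69 ± 0.15 SE, adjusted p = 2.03e-11) and ALDOC (log2 -1.99 ± 0.19 SE, adjusted p = 2.53e-10) fell with it. The summed melanocyte markers were 8094 to 8247 CPM at 20 hours and 831 to 897 at week 1, the fibroblast markers 71.3 to 77.0 and 310 to 316, and their part was not tested.

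Under continuous drug 4 of the 5 hypoxia-responsive genes rose from week 1 to week 4, and none fell. Of 39 members 19 rose (48.7%) and 7 fell (17.9%) at an adjusted p under 0.05, against 21.1% and 19.9% of all genes, so the falling share was near the background. CA9 had 1 count over the 3 libraries at week 1 and 178 over the 2 at week 4, 256 times more per library depth (45.4 to 10166, counting error). The only count at week 1 lay in replicate 3, without which the fitted log2 change went from 7.52 to 9.32. By library CA9 stood at 0.123, 0.0677 and 0.0748 CPM at week 2, 1.17, 1.16 and 1.25 at week 3 and 3.51 and 2.10 at week 4, above every earlier library of BRAF-V600E cells from week 3 on. STC1 rose from 1.93, 1.67 and 2.07 CPM at week 1 to 14.2, 12.0 and 13.1 at week 3 and 20.4 and 21.0 at week 4, 11.0-fold (log2 3.46 ± 0.14 SE, adjusted p = 2.69e-18). ADM, which encodes the vasodilator peptide adrenomedullin, went from 45.4, 45.2 and 45.1 to 140.3 and 132 CPM (log2 1.59 ± 0.13 SE, adjusted p = 1.8e-11), and ALDOC from 1.58, 1.85 and 1.48 to 7.55 and 6.74 (log2 2.12 ± 0.20 SE, adjusted p = 5.97e-10). All 4 genes are known to respond to low oxygen. EPAS1 rose 2.12-fold, from 62.1, 61.8 and 60.4 to 133 and 128 (log2 1.09 ± 0.08 SE, adjusted p = 9.25e-13). HIF1A did not pass the test (log2 0.06 ± 0.09 SE, adjusted p = 0.614). LDHA (log2 0.94 ± 0.08 SE, adjusted p = 3.19e-11), BNIP3L (log2 0.77 ± 0.09 SE, adjusted p = 3.22e-08), EGLN3 (log2 0.84 ± 0.16 SE, adjusted p = 5.99e-05) and PDK1 (log2 0.73 ± 0.10 SE, adjusted p = 2.24e-07) rose by less than 2-fold.

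Other members fell over the same 3 weeks. VEGFA fell from 212, 209 and 209 CPM to 103 and 116 (log2 -0.94 ± 0.07 SE, adjusted p = 1.45e-12), while VEGFC rose to 38.7 and 42.3 (log2 0.64 ± 0.15 SE, adjusted p = 0.00124), so the 2 ligands moved in opposite directions. PFKFB3 (log2 -0.59 ± 0.09 SE, adjusted p = 4.89e-06), PFKFB4 (log2 -0.47 ± 0.10 SE, adjusted p = 0.000233) and SLC2A3 (log2 -0.50 ± 0.08 SE, adjusted p = 1.67e-05) fell from their levels at week 1. SLC2A1 did not pass the test, at 227 and 224 CPM (log2 0.13 ± 0.08 SE, adjusted p = 0.222). ANGPTL4 was lower (log2 -0.99 ± 0.31 SE, adjusted p = 0.0122), but not without replicate 2 of week 4 (adjusted p = 0.121). Fibroblast markers moved with this arm: the summed level of 8 was 310 to 316 CPM at week 1 and 2359 to 2604 at week 4, of which COL1A1 made up 2179 on average, while DCN had a mean of 1.63. Their part in these results was not tested.

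**Figure D2:**
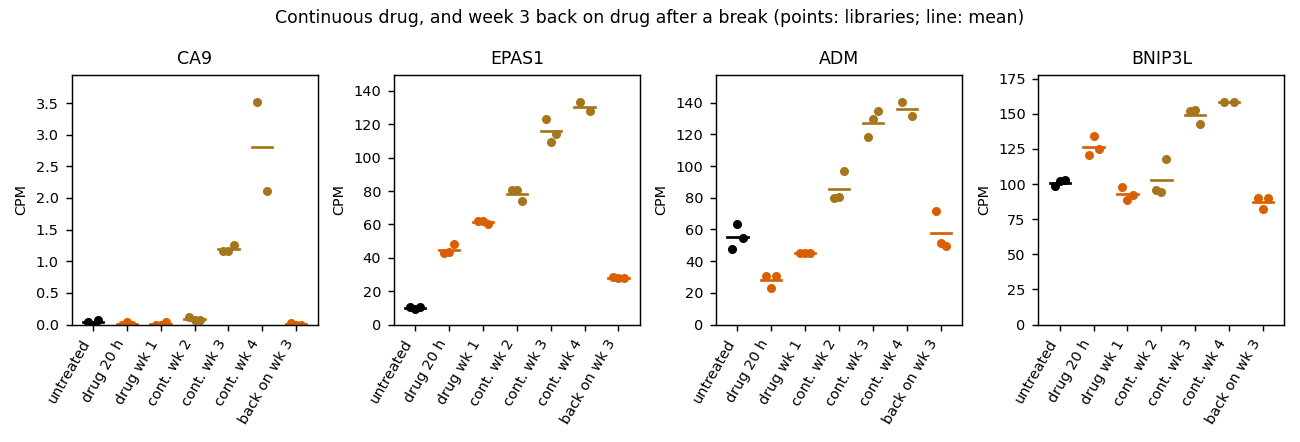
Each point is 1 library and each line the group mean, in CPM, for CA9, EPAS1, ADM and BNIP3L in untreated cells, on continuous drug from 20 hours to week 4, and at week 3 back on drug after a break. All 4 genes are higher at weeks 3 and 4 of continuous drug than at week 3 of the intermittent arm.

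After 7 days without the drug, 9 of the 15 enzymes, 6 of the 8 regulators and SLC2A3 were higher than at week 1, while STC2, VEGFC, EPAS1 and SLC2A1 were lower. Against week 1, of 39 members 22 rose (56.4%) and 9 fell (23.1%) at an adjusted p under 0.05, against 27.7% and 26.8% of all genes, so the falling share was near the background. STC1 showed the largest change, from 1.93, 1.67 and 2.07 CPM to 85.5, 88.7 and 89.0, 46.5-fold (log2 5.54 ± 0.14 SE, adjusted p = 1.81e-24). NDRG1 rose from 141, 159 and 142 to 496, 530.0 and 496 CPM, 3.44-fold (log2 1.78 ± 0.07 SE, adjusted p = 1.52e-19). PFKFB4 rose from 76.3, 77.9 and 78.8 to 215, 219 and 253 (log2 1.56 ± 0.09 SE, adjusted p = 9.23e-16) and PFKFB3 from 34.1, 36.1 and 32.4 to 77.2, 77.6 and 85.6 (log2 1.23 ± 0.08 SE, adjusted p = 3.72e-14). No library of the 2 groups overlapped for any of these. SLC2A3, a glucose transporter of high affinity, went from 71.8, 71.2 and 66.6 to 172, 161 and 153 (log2 1.21 ± 0.07 SE, adjusted p = 9.69e-15), while SLC2A1 fell from 207, 218 and 193 to 96.5, 110.2 and 86.6 (log2 -1.07 ± 0.08 SE, adjusted p = 3.18e-13). The 2 transporters thus moved in opposite directions. ANGPTL4 (log2 1.70 ± 0.24 SE, adjusted p = 6.14e-07), EGLN3 (log2 1.34 ± 0.14 SE, adjusted p = 2.24e-09) and ADM (log2 1.20 ± 0.12 SE, adjusted p = 6.27e-10) rose more than 2-fold. The enzymes changed by less than 2-fold, with 2 of them lower. PGK1 was among the higher ones (log2 0.17 ± 0.07 SE, adjusted p = 0.0373), but not without the libraries that stood apart (adjusted p = 0.0527). PKM stood at 3861 ± 108 and then 7184 ± 468 CPM (log2 0.90 ± 0.07 SE, adjusted p = 6.17e-12).

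Of the 9 that fell, 4 did so by at least 2-fold. STC2 went from 8.48, 7.50 and 7.996 to 1.34, 1.89 and 2.51 CPM (log2 -2.04 ± 0.17 SE, adjusted p = 2.08e-11), VEGFC from 27.1, 25.4 and 25.8 to 9.56, 9.26 and 8.57 (log2 -1.52 ± 0.15 SE, adjusted p = 7.8e-10), and EPAS1 from 62.1, 61.8 and 60.4 to 23.5, 25.8 and 28.6 (log2 -1.24 ± 0.07 SE, adjusted p = 4.55e-15). SLC16A3 fell as well (log2 -0.58 ± 0.11 SE, adjusted p = 3.59e-05). VEGFA fell by less, to 149, 152 and 157 CPM (log2 -0.46 ± 0.06 SE, adjusted p = 1.21e-07).

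The same off-drug cells were then set against cells kept on drug to week 2, which matches time in culture. Of 39 members 18 rose (46.2%) and 13 fell (33.3%) at an adjusted p under 0.05, against 27.3% and 27.9% of all genes. This comparison shares its off-drug libraries with the one before, so the 2 are not independent. STC1 was 17.8-fold higher off drug (log2 4.16 ± 0.12 SE, adjusted p = 1.32e-22), SLC2A3 4.40-fold (log2 2.14 ± 0.08 SE, adjusted p = 2.34e-20), NDRG1 3.86-fold (log2 1.95 ± 0.07 SE, adjusted p = 2.27e-20) and PFKFB4 3.68-fold (log2 1.88 ± 0.09 SE, adjusted p = 1.42e-17). STC2 (log2 -2.63 ± 0.17 SE, adjusted p = 4.09e-14), VEGFC (log2 -2.36 ± 0.15 SE, adjusted p = 3.25e-14), EPAS1 (log2 -1.59 ± 0.07 SE, adjusted p = 1.19e-17) and SLC2A1 (log2 -1.44 ± 0.08 SE, adjusted p = 3.62e-16) were lower by more than 2-fold. VEGFA, lower than at week 1, was higher than in the matched arm (log2 0.49 ± 0.06 SE, adjusted p = 3.22e-08). LDHB (log2 -0.25 ± 0.09 SE, adjusted p = 0.0181) was no longer lower without the library that stood apart at week 2 (adjusted p = 0.165), where TPI1 and PGAM1 became higher off drug (log2 0.25 and 0.26). Markers of other cell types moved with the off-drug state. The summed fibroblast markers were 310 to 316 CPM at week 1, 1153 to 1215 at week 2 on continuous drug and 60.6 to 63.1 off drug, with 5 of 8 lower off drug and 2 higher in each of the 2 comparisons. The summed endothelial markers (6 genes) were 0.894 to 1.51 CPM at week 1, 0.486 to 1.69 on continuous drug and 18.1 to 20.7 off drug, mostly KDR. PECAM1 went from a mean of 0.0578 CPM at week 1 to 2.78 off drug and VWF from 0.531 to 2.0. CDH5 was at 0 in all off-drug libraries and CLDN5 at 0 at week 2. EMCN went the other way, with a mean of 0.177 CPM at week 1, 0.371 on continuous drug and 0.0931 off drug. Of 4 endothelial markers tested, 3 were higher off drug in each comparison, with 0 lower against week 1 and 1 lower against continuous drug. Their part in these results was not tested. BRAF RNA, given above, was also highest off drug, and its part was not tested.

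**Figure D3:**
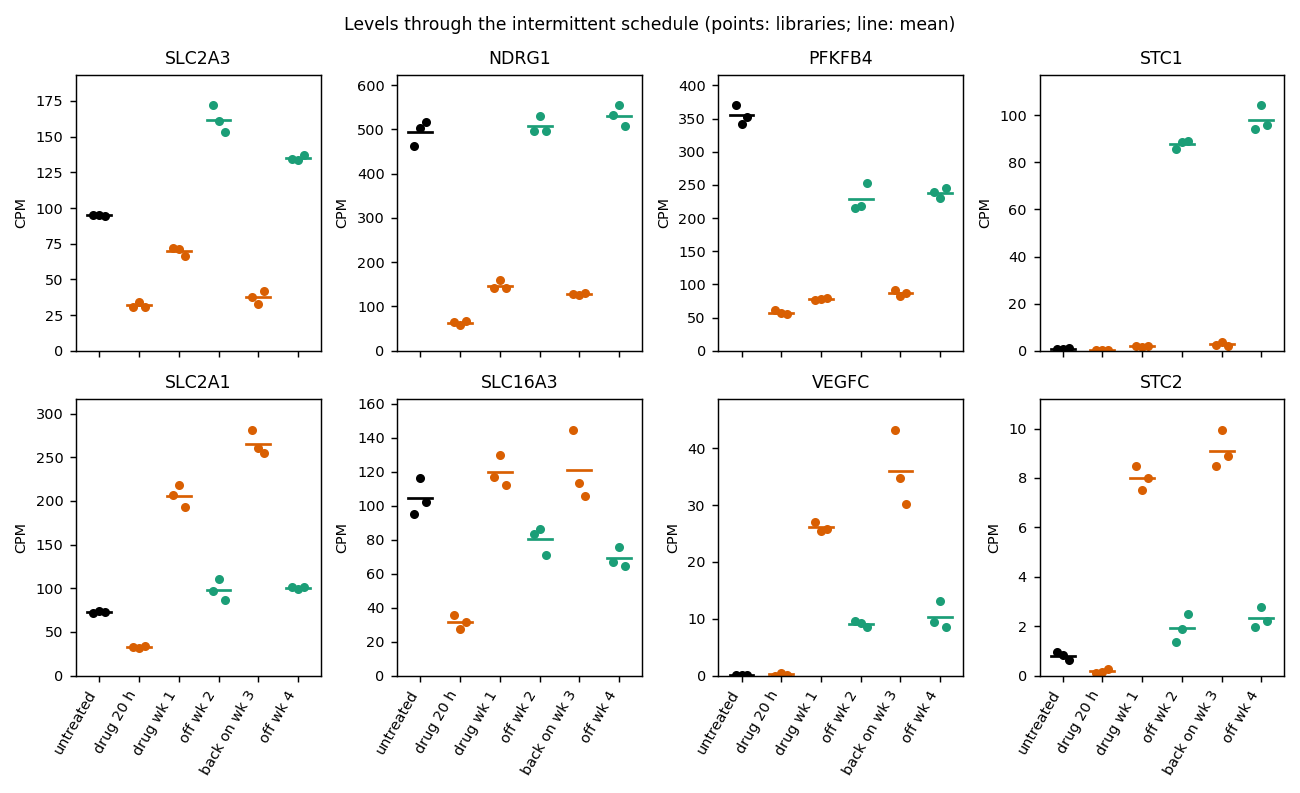
Each point is 1 library and each line the group mean, in CPM, for 8 members through the intermittent schedule, with untreated cells in black, cells on drug in orange and cells off drug in green. The upper 4 genes are high in both off-drug groups and low on drug; the lower 4 are low off drug and high at weeks 1 and 3 on drug.

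Back on LGX818 from week 2 to week 3, STC1, SLC2A3, NDRG1 and PFKFB4 fell and STC2, VEGFC and SLC2A1 rose. Of 39 members 7 rose (17.9%) and 21 fell (53.8%) at an adjusted p under 0.05, against 27.8% and 28.5% of all genes. The share that rose was below that of all genes. STC1 fell to 2.64, 3.51 and 2.002 CPM, 32.1-fold (log2 -5.01 ± 0.13 SE, adjusted p = 7.37e-24). SLC2A3 fell to 37.5, 32.9 and 41.6 (log2 -2.12 ± 0.08 SE, adjusted p = 3e-20), NDRG1 to 129, 127 and 132 (log2 -1.97 ± 0.07 SE, adjusted p = 1.85e-20) and PFKFB4 to 91.7, 83.2 and 87.1 (log2 -1.39 ± 0.09 SE, adjusted p = 1.37e-14). PFKFB3 (log2 -1.04 ± 0.08 SE, adjusted p = 1.67e-12) and ANGPTL4 (log2 -1.79 ± 0.24 SE, adjusted p = 2.43e-07) fell more than 2-fold too. STC2 rose to 8.49, 9.94 and 8.89 CPM (log2 2.23 ± 0.17 SE, adjusted p = 2.15e-12), VEGFC to 43.2, 34.8 and 30.2 (log2 1.98 ± 0.15 SE, adjusted p = 1.81e-12) and SLC2A1 to 281, 260.2 and 255 (log2 1.44 ± 0.08 SE, adjusted p = 3.64e-16). EPAS1 did not pass the test, at 28.4, 27.7 and 28.1 CPM (log2 0.11 ± 0.07 SE, adjusted p = 0.22). ENO1 rose (log2 0.22 ± 0.09 SE, adjusted p = 0.0403) and SLC16A1 fell (log2 -0.23 ± 0.07 SE, adjusted p = 0.00548), neither of them past the threshold without the library that stood apart at week 3 (adjusted p = 0.208 and 0.0587). The summed fibroblast markers went from 60.6 to 63.1 CPM off drug to 712 to 841 back on drug, the endothelial ones from 18.1 to 20.7 to 1.08 to 1.83, and their part was not tested.

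Whether the second response to drug differed from the first was tested by subtracting the change between untreated cells and week 1 from the change between week 2 off drug and week 3. These 2 changes share no libraries. Of 39 members 17 had a higher second response (43.6%) and 12 a lower one (30.8%), against 23.3% and 25.0% of all genes. Higher and lower give the sign of the difference in log2 change, not the size of the response. A smaller fall thus counts as higher and a larger fall as lower. Both drug responses lowered 15 members, out of 23 lowered by the first and 21 by the second, and raised 3 (SLC2A1, VEGFC and STC2), out of 10 and 7. A further 7 passed the test in opposite directions. Shared calls were not counted over all genes, so these counts are read as no result about the members. SLC2A1 rose by log2 1.503 ± 0.08 (SE) the first time and 1.44 ± 0.08 the second, and the difference did not pass the test (log2 -0.06 ± 0.11 SE, adjusted p = 0.673). VEGFA rose by log2 2.04 the first time and changed by -0.31 the second, a difference of -2.34 ± 0.09 (adjusted p = 9.11e-20). EPAS1 rose by 2.60 and then changed by 0.11 (log2 -2.49 ± 0.11 SE, adjusted p = 5.13e-18 for the difference), and EGLN3 rose by 2.25 and then changed by -0.84 (log2 -3.09 ± 0.23 SE, adjusted p = 1.87e-12). VEGFC rose both times, by 7.84 from a level near 0 and then by 1.98 (log2 -5.86 ± 0.39 SE, adjusted p = 1.2e-13). All 5 secreted factors had a lower second response, though the first response of ANGPTL4 rests on 2 counts in untreated cells. By contrast 9 of 15 enzymes and 7 of 8 regulators had a higher one. PFKL and SLC16A3 among these, and NDRG1 among the lower ones, did not pass the test without the library that stood apart (adjusted p = 0.0593, 0.0708 and 0.123). LDHA changed by -1.51 and then -0.27 (log2 1.24 ± 0.10 SE, adjusted p = 1.11e-11), PDK1 by -1.79 and then -0.34 (log2 1.45 ± 0.12 SE, adjusted p = 1.67e-11). The starting levels differed: before the second exposure LDHA stood at 959 ± 22.1 CPM against 1520.1 ± 75.8 before the first, and PDK1 at 25.5 ± 0.537 against 60.04 ± 2.58.

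**Figure D4:**
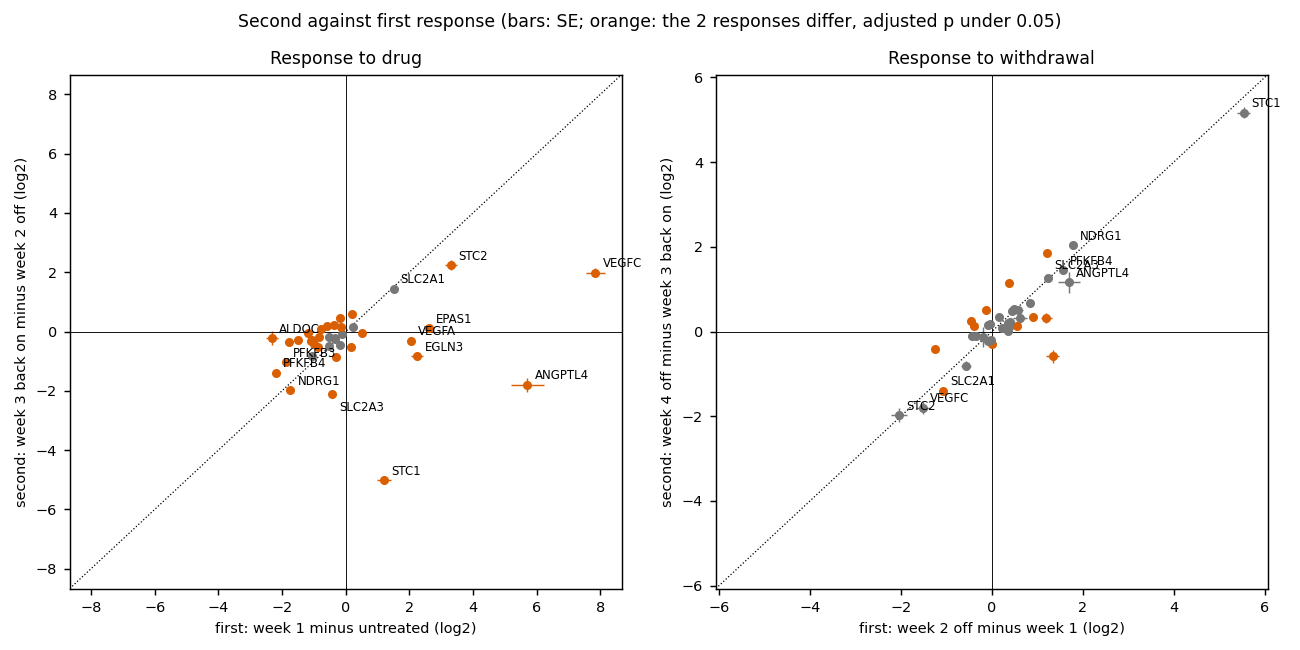
Each point is 1 member, with its log2 change in the first response on the horizontal and in the second on the vertical axis, for drug (left) and withdrawal (right). CA9 is not shown. Bars are standard errors, the dotted line is equality, and orange marks members whose 2 responses differ at an adjusted p under 0.05. For drug, VEGFA, VEGFC, EPAS1, EGLN3, ANGPTL4 and STC1 lie far below the line. For withdrawal most members lie near it.

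Cells back on drug at week 3 were compared with cells that had never left it, at the same total time in culture. Of 39 members 5 rose (12.8%) and 18 fell (46.2%) at an adjusted p under 0.05, against 14.0% and 14.3% of all genes, so the rising share was near the background. All 5 hypoxia-responsive genes were lower after the break. CA9 had 1 count over the 3 libraries back on drug and 114 over the 3 on continuous drug, 115 times fewer per library depth (20.3 to 4595, counting error), and its fitted log2 change of -6.34 became -8.09 without replicate 1 back on drug. The only count back on drug lay in replicate 1, the library that stood apart. EPAS1 was at 28.4, 27.7 and 28.1 CPM back on drug and 123, 109.6 and 114 on continuous drug, 4.12-fold lower (log2 -2.04 ± 0.07 SE, adjusted p = 3.82e-19). STC1 was at 2.64, 3.51 and 2.002 against 14.2, 12.0 and 13.1 (log2 -2.26 ± 0.13 SE, adjusted p = 2.19e-14) and ADM at 71.9, 51.6 and 49.8 against 118, 129.6 and 135 (log2 -1.14 ± 0.12 SE, adjusted p = 6.06e-09). The groups did not overlap for any of the 3. ALDOC (log2 -1.87 ± 0.20 SE, adjusted p = 1.25e-08), BNIP3L (log2 -0.77 ± 0.08 SE, adjusted p = 9.87e-09) and BNIP3 (log2 -0.62 ± 0.09 SE, adjusted p = 1.62e-06) were lower too. BNIP3 has 39 pseudogene copies in the table, which held at most 4.78% of the reads of the gene and its copies in any library. This share covers only reads that were assigned to a gene in the table. PFKP (log2 0.56 ± 0.07 SE, adjusted p = 1.77e-07), PFKFB3 (log2 0.47 ± 0.08 SE, adjusted p = 2.81e-05), PFKFB4 (log2 0.44 ± 0.09 SE, adjusted p = 0.000207), VEGFA (log2 0.27 ± 0.06 SE, adjusted p = 0.000693) and ANGPTL4 (log2 1.31 ± 0.29 SE, adjusted p = 0.000865) were higher after the break. SLC2A1, HIF1A and GAPDH did not pass the test, with log2 differences of 0.18, -0.01 and -0.05. The summed fibroblast markers were 712 to 841 CPM back on drug and 1779 to 1868 on continuous drug, and their part was not tested.

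A second withdrawal, from week 3 to week 4, again raised STC1, NDRG1 and SLC2A3 and lowered STC2, VEGFC and SLC2A1. Of 39 members 18 rose (46.2%) and 8 fell (20.5%) at an adjusted p under 0.05, against 23.1% and 22.3% of all genes, so the falling share was near the background. STC1 rose to 94.0, 104 and 95.8 CPM, 35.9-fold (log2 5.17 ± 0.13 SE, adjusted p = 5.52e-24), NDRG1 to 533, 555 and 507 (log2 2.04 ± 0.07 SE, adjusted p = 1.26e-20) and SLC2A3 to 135, 134 and 137 (log2 1.85 ± 0.08 SE, adjusted p = 8.9e-19). PFKFB4 (log2 1.45 ± 0.09 SE, adjusted p = 7.47e-15), PFKFB3 (log2 1.26 ± 0.08 SE, adjusted p = 2.65e-14), HK2 (log2 1.16 ± 0.07 SE, adjusted p = 4.93e-14) and ANGPTL4 (log2 1.16 ± 0.24 SE, adjusted p = 0.000226) also rose at least 2-fold. STC2 fell to 1.98, 2.76 and 2.20 CPM (log2 -1.97 ± 0.17 SE, adjusted p = 1.95e-11), VEGFC to 9.40, 13.1 and 8.47 (log2 -1.80 ± 0.15 SE, adjusted p = 1.37e-11) and SLC2A1 to 101, 99.2 and 101 (log2 -1.40 ± 0.08 SE, adjusted p = 8.6e-16). The same 3 genes had fallen at least 2-fold in the first withdrawal. Both withdrawals raised 15 members, out of 22 and 18 raised by each, and lowered 5, out of 9 and 8. EGLN3 and VEGFA passed the test in opposite directions. The same counts were not taken over all genes, so these shared calls are read as no result about the members. SLC16A1 and EGLN1 were among the members raised and BNIP3L among those lowered by the second withdrawal, but not without the library that stood apart at week 3 (adjusted p = 0.104, 0.141 and 0.0551). Markers moved here too: the summed fibroblast markers were 712 to 841 CPM back on drug and 57.1 to 59.8 off drug, the endothelial ones 1.08 to 1.83 and 28.2 to 30.3, and the melanocyte ones 412 to 537 and 965 to 1032. Their part was not tested.

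The 2 withdrawals were also tested as a difference of responses, with higher and lower again giving its sign. Of 39 members 6 had a higher second response (15.4%) and 6 a lower one (15.4%), against 7.60% and 9.50% of all genes. The lower count came to 3 without replicate 1 of week 1, without replicate 1 of week 4 off drug or without a count filter, and the higher count to 10 without the 2 libraries that stood apart, where SLC2A1 and PFKP were no longer lower (adjusted p = 0.0953 and 0.137). EGLN3 had risen in the first withdrawal, from 3.58, 3.35 and 3.88 to 9.81, 9.55 and 8.04 CPM, and fell in the second, from 5.43, 4.70 and 5.22 to 3.27, 3.56 and 3.37 (difference log2 -1.93 ± 0.20 SE, adjusted p = 2.03e-08). ADM rose less the second time (log2 -0.88 ± 0.17 SE, adjusted p = 0.000235) and HK2 more (log2 0.79 ± 0.11 SE, adjusted p = 1.32e-06). EPAS1 fell less (log2 0.84 ± 0.10 SE, adjusted p = 4.67e-07), from its lower level back on drug. For STC1 (log2 -0.37 ± 0.19 SE, adjusted p = 0.201), PFKFB4 (log2 -0.11 ± 0.12 SE, adjusted p = 0.602), VEGFC (log2 -0.29 ± 0.21 SE, adjusted p = 0.413) and STC2 (log2 0.07 ± 0.24 SE, adjusted p = 0.903) the difference did not pass the test.

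Most members differed between off-drug and untreated cells. Against untreated cells, off drug at week 2, 13 rose (33.3%) and 18 fell (46.2%) at an adjusted p under 0.05, against 31.2% and 28.8% of all genes, and off drug at week 4, 12 rose (30.8%) and 18 fell (46.2%) at an adjusted p under 0.05, against 28.1% and 25.7% of all genes. The rising shares were near the background, and both comparisons use the same untreated libraries. NDRG1 did not differ past the threshold, with log2 differences of 0.04 at week 2 and 0.11 at week 4 (adjusted p = 0.631 and 0.191). STC1 stood at 0.815 ± 0.256 CPM untreated, 87.7 ± 1.96 at week 2 and 98.0 ± 5.45 at week 4 off drug, 107-fold and 119.7-fold higher. ALDOC (log2 -2.87 ± 0.20 SE, adjusted p = 1.98e-13 at week 4), PDK1 (log2 -1.45 ± 0.08 SE, adjusted p = 3.4e-15) and LDHB (log2 -1.16 ± 0.09 SE, adjusted p = 3.47e-12) remained more than 2-fold lower. LDHB exons overlap over 33.4% of their length with another gene in GENCODE 29.

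Over all 20 libraries from week 1 on, on or off drug, 10 members lay above every untreated library and 12 below every one, against 11.5% and 10.9% of all genes tested. Those above were SLC2A1, PKM, HIF1A, EPAS1, EGLN3 and all 5 secreted factors. Those below were HK1, HK2, GPI, PFKM, PFKFB3, PFKFB4, PGK1, ENO2, LDHA, LDHB, PDK1 and PDK3. The remaining 17 members overlapped or crossed the untreated range. PKM, the last enzyme of glycolysis, ran from 3449 ± 119.9 CPM in untreated cells to 7184 ± 468 off drug at week 2, while PGK1, an enzyme 3 steps before it, ran from 592 ± 23.0 to 373 ± 24.5.

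Within gene pairs, shares of length-scaled counts showed how the isozyme make-up moved. SLC2A1 made up 49.9 ± 0.423% of the SLC2A1 and SLC2A3 pair in untreated cells (mean ± SD, n = 3), 79.3 ± 0.559% at week 1, 90.3 ± 0.866% at week 2 of continuous drug and 44.0 ± 2.82% off drug at week 2. It returned to 90.3 ± 1.22% back on drug and fell again to 49.2 ± 0.172% off drug. At 20 hours of drug the share was 57.2 ± 2.31%, nearer to that of untreated cells than to that of week 1. From week 1 on the share therefore followed the drug in both directions. LDHA made up 42.2 ± 0.296% of lactate dehydrogenase RNA in untreated cells, 22.4 ± 0.979% at 20 hours and 36.9 ± 0.540% at week 1. Off drug it held 52.6 ± 1.44% at week 2 and 57.6 ± 0.835% at week 4. On drug it also passed the untreated share. It held 47.6 ± 1.90, 51.3 ± 0.775 and 53.5 ± 0.370% (n = 2) at weeks 2, 3 and 4 of continuous drug and 48.9 ± 0.500% back on drug. PFKM, of the 3 phosphofructokinase genes, held 20.5 ± 0.785% in untreated cells, 38.8 ± 1.95% at 20 hours and 14.3 ± 0.628% at week 1. EPAS1 held 1.59 ± 0.0650% of the HIF1A and EPAS1 pair in untreated cells, 11.0 ± 0.707% at 20 hours, 12.4 ± 0.0584% (n = 2) at week 4 of continuous drug and 2.79 ± 0.378% at week 3 back on drug. With the longest transcript in place of the merged exons, shares of these 4 moved by up to 7.02 percentage points, and LDHA then held 49.2% in untreated cells.

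**Figure D5:**
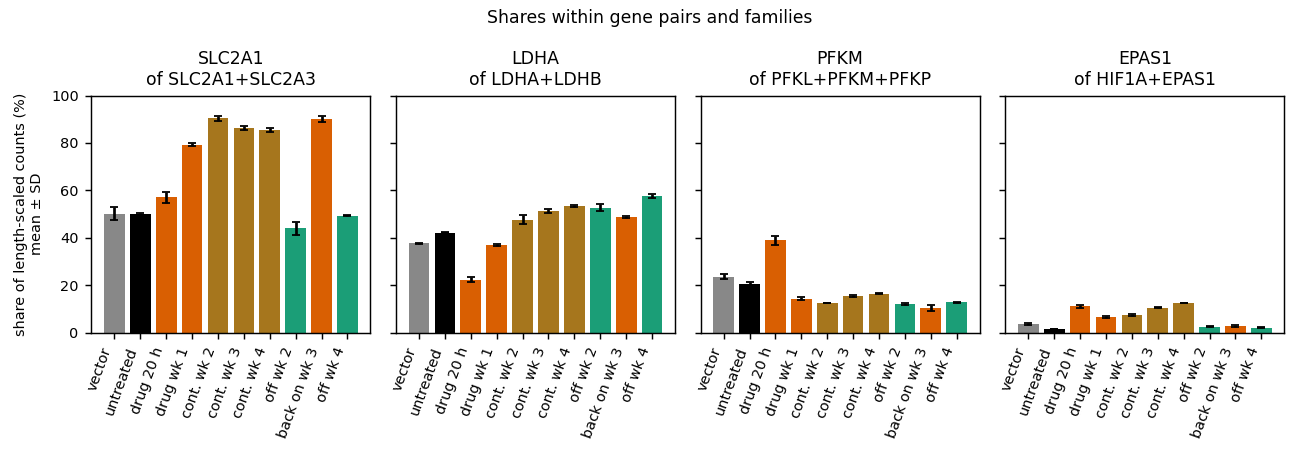
Bars are mean shares of length-scaled counts in percent, with SD, for SLC2A1, LDHA, PFKM and EPAS1 within their pair or family in each of the 10 groups. The SLC2A1 share is high in each group on drug from week 1 on and near 50% or below it in the off-drug groups.

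Further genes of these pathways, on lists drawn up apart from the members, gave the following counts. Of 20 tested genes of glucose metabolism outside the members, 7 were higher and 4 lower at 20 hours, against 28.4% and 25.2% of all genes, and 8 were higher and 6 lower at week 1 against untreated cells, against 27.5% and 26.7%. Of 26 tested hypoxia genes, 12 were higher and 6 lower at 20 hours. At week 1 they were mixed, with 10 higher and 11 lower than in untreated cells and 10 higher and 12 lower than at 20 hours, and at week 4 of continuous drug 12 were higher and 6 lower than at week 1, against 21.1% and 19.9% of all genes. With lists this small, these shares are read as no result about the lists. At 20 hours 3 of the 26 hypoxia genes were higher by at least 2-fold and only 1, AK4, was lower. AK4, a mitochondrial adenylate kinase known as a HIF target, fell from 26.6 ± 2.41 to 5.81 ± 0.00182 CPM (log2 -2.19 ± 0.09 SE, adjusted p = 1.11e-18). It rose from week 1 to week 4 of continuous drug from 9.08 ± 0.378 to 27.1 ± 2.89 CPM (log2 1.58 ± 0.09 SE, adjusted p = 1.59e-14). In the first withdrawal 8 of the 26 hypoxia genes were higher and 9 lower, against 27.7% and 26.8% of all genes. By at least 2-fold 3 were lower and only 1, BHLHE40, was higher. BHLHE40, a repressor induced by hypoxia, rose there from 23.4 ± 0.724 to 169 ± 12.3 CPM (log2 2.85 ± 0.08 SE, adjusted p = 2.4e-23). It fell back on drug from 169 ± 12.3 to 38.3 ± 3.67 CPM (log2 -2.14 ± 0.08 SE, adjusted p = 1.35e-20), the direction NDRG1 and PFKFB4 took. PGM1, which links glycogen to glycolysis, rose in the first withdrawal from 44.0 ± 1.64 to 94.2 ± 6.38 CPM (log2 1.10 ± 0.07 SE, adjusted p = 5.24e-14) and in the second from 48.0 ± 0.360 to 102 ± 0.462 CPM (log2 1.08 ± 0.07 SE, adjusted p = 8.67e-14).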

How the data were processed

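Poly(A) RNA of 29 libraries in 10 groups was analysed from a table of unnormalised counts per gene that the authors deposited. Per the submitters' processing notes, HISAT2 2.0.3 and HTSeq 0.6.1 were among the tools used, with Trimmomatic 0.32 and SAMtools 0.1.18, on GRCh38; the annotation release and strand setting are not given in the sources used here. Per the labels' protocols, cells were frozen and RNA was purified once the course had ended. The columns of week 3 in the intermittent arm are named off drug in the table, while the labels of these samples say on drug; they were matched by week, schedule and replicate, and the labels were followed.

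Genes with low counts were left out (filterByExpr), and all 29 libraries were fitted in R 4.3.3 by edgeR 4.0.16's quasi-likelihood test with TMM factors and 1 term per group, with Benjamini-Hochberg adjustment over the 20494 genes of each of 14 comparisons and a threshold of 0.05. Libraries held 22934039 to 35804978 counts, and CPM used TMM-scaled library sizes. DESeq2 served only as an alternative. The fit was tested on simulated data. Members with 3 counts or fewer over a group were compared as ratios of counts with an exact 95% interval, which covers counting error only. Isozyme shares used counts per kilobase of exon. Alternatives were DESeq2 1.42.0, its size factors, no count filter, the compared groups alone, a replicate block, leaving out each library and leaving out the libraries that stood apart; without a week 4 library of continuous drug, the one left is assumed to vary like the other groups.

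Members past the threshold, at least 2-fold changed and not overlapping had priority for values of every library. Some others were given in full for their role, after their values were seen. Examples are EPAS1, LDHA and PDK1 against vector, and PFKM and HIF1A at 20 hours. Genes of other lists were limited to the 4 with the largest change per comparison. DUSP6 and CCND1 checked the drug state, and BRAF was named as a check of the construct. Members, lists and tests were chosen with earlier results of these data known.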

Additional observations from a re-analysis of the deposited data

Results flagged for a closer look

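In 13 cases a member's response differed between the first and second exposure or withdrawal by at least 1 on the log2 scale, tested as a difference of responses (edgeR's quasi-likelihood test, Benjamini-Hochberg adjustment). For the drug, the second minus the first response was -2.34 for VEGFA, -1.07 for STC2, -1.67 for SLC2A3, -2.49 for EPAS1 and -3.09 for EGLN3 (adjusted p = 9.11e-20, 0.0018, 3.03e-14, 5.13e-18 and 1.87e-12). The differences of -5.86 for VEGFC, -6.21 for STC1 and -7.49 for ANGPTL4 (adjusted p = 1.2e-13, 3.68e-19 and 4.95e-12) start from untreated levels of at most 1.10 CPM in a library, and those of VEGFC and ANGPTL4 from 9 and 2 counts in all, so their fitted size depends on the prior count. The difference was 2.10 for ALDOC, 1.14 for LDHB, 1.24 for LDHA and 1.45 for PDK1 (adjusted p = 7.36e-07, 8.83e-09, 1.11e-11 and 1.67e-11). For withdrawal, EGLN3 differed by -1.93 (adjusted p = 2.03e-08). The exposures started from cells of different history, and the part of starting levels was not tested.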

How the results depend on the processing

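Of 380 calls of single members over the 14 comparisons none reversed direction under any alternative run. DESeq2 lost 7 and gained 12, its size factors lost 7 and gained 4, fitting the compared groups alone lost 21 and gained 14, no count filter lost 21 and gained 8, leaving out each library in turn lost 44 and gained 41 in at least 1 fit, and leaving out the 2 libraries that stood apart lost 12 and gained 29. Counts that moved by over 1.5 times were the members lower in BRAF-V600E cells than in vector cells (7, against 4 with the compared groups alone) and, for the second minus first withdrawal, the members higher (6, against 10 without the libraries that stood apart) and lower (6, against 3 with no count filter, and 3 to 7 with 1 library left out). The cause was not tested. Replicate numbers did not pair the samples: over 126 pairs of the same number the correlation of deviations from the group means ran from -0.214 to 0.138, and 12 of 29 libraries correlated best with their own number. With the replicate block 6 of the 380 calls were lost and none gained. Depth limits CA9, ANGPTL4 and VEGFC, which had 3, 2 and 9 counts over the untreated libraries. Isozyme shares moved by -8.50 (HK2) to 10.6 percentage points (SLC16A3) with the longest transcript as the length.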

Other observations

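Of 17 tested receptors and ligands of vessel growth outside the members, 4 were higher and 8 lower at 20 hours (against 28.4% and 25.2% of all genes) and 7 higher and 7 lower at week 1 against untreated cells (27.5% and 26.7%). In the first withdrawal 10 were higher and 5 lower (27.7% and 26.8%), back on drug 6 and 7 (27.8% and 28.5%), and in the second withdrawal 8 and 3 (23.1% and 22.3%). KDR, the main VEGFA receptor of endothelium, stood at 9.58 ± 1.01 CPM in untreated cells (mean ± SD, n = 3), 0.360 ± 0.175 at week 1, 14.2 ± 1.88 off drug at week 2, 0.547 ± 0.332 back on drug and 23.5 ± 0.464 off drug at week 4. It rose in the first withdrawal from 0.360 ± 0.175 to 14.2 ± 1.88 CPM (log2 5.28 ± 0.27 SE, adjusted p = 8.59e-17) and fell back on drug from 14.2 ± 1.88 to 0.547 ± 0.332 CPM (log2 -4.68 ± 0.25 SE, adjusted p = 2.94e-16). TIE1, another receptor of the endothelium, fell back on drug from 80.8 ± 9.05 to 13.2 ± 1.26 CPM (log2 -2.61 ± 0.12 SE, adjusted p = 1.88e-17) and rose in the second from 13.2 ± 1.26 to 80.8 ± 11.5 CPM (log2 2.61 ± 0.12 SE, adjusted p = 2.55e-17). Of the other endothelial markers, PECAM1 had a mean of 0.0578 CPM at week 1 and 2.78 and 3.98 in the off-drug groups. VWF had 0.531, 2.0 and 1.51, and CDH5 0 in all 3 groups. EMCN had 0.177, 0.0931 and 0.120 and CLDN5 0.0110, 0 and 0.0318. NRP1, a co-receptor of VEGF, and THBS1, a secreted inhibitor of angiogenesis, had these levels: at week 1 THBS1 had 8073 ± 174 CPM against 87.1 ± 4.54 in untreated cells (log2 6.53 ± 0.14 SE, adjusted p = 8.12e-26), and off drug at week 2 NRP1 had 520.2 ± 50.1 against 15.05 ± 0.770 (log2 5.11 ± 0.10 SE, adjusted p = 1.32e-26).

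TALDO1 and PGD, 2 enzymes of the pentose phosphate pathway that were picked as 2 of the 4 largest changes of their list, rose at week 1. TALDO1 rose from 218 ± 19.8 to 732 ± 39.4 CPM (log2 1.75 ± 0.10 SE, adjusted p = 3.6e-15) and PGD from 151 ± 6.56 to 491 ± 3.31 (log2 1.70 ± 0.08 SE, adjusted p = 5.01e-18). Under continuous drug both fell again by week 4, PGD by 1.62 and TALDO1 by 1.54 on the log2 scale (adjusted p = 2.44e-15 and 5.97e-12). In the second exposure the response of PGD was lower than in the first by a log2 difference of -3.08 ± 0.11 (SE; adjusted p = 5.16e-20).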
